A study of Mus musculus with 10 samples.

Results

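Interferon-stimulated genes are the transcripts that cells switch on when an interferon binds its receptor. A fixed list of 41 of them was followed here by gene symbol, out of 22923 symbols measured, through 10 RNA-sequencing libraries of mouse bone marrow and thymus. All 41 symbols were found, 40 on a row of their own and Ifi47 on a row that also names the olfactory receptor gene Olfr56. The list held 5 genes of transcription and feedback (Irf7, Irf9, Stat2, Usp18, Isg15), 4 nucleic acid sensors (Ifih1, Ddx58, Dhx58, Zbp1), and 6 genes of the oligoadenylate synthetase family with the kinase PKR (Oas1a, Oas2, Oas3, Oasl1, Oasl2, Eif2ak2). It also held 3 IFIT genes (Ifit1, Ifit2, Ifit3), 2 Mx genes (Mx1, Mx2) and 9 inducible GTPases (Tgtp1, Tgtp2, Igtp, Irgm1, Irgm2, Iigp1, Ifi47, Gbp2, Gbp3). The remaining members were 5 other antiviral effectors (Rsad2, Cmpk2, Isg20, Ifitm3, Ly6e), 3 genes of the PARP and DTX3L group (Parp9, Parp14, Dtx3l) and 4 further genes (Ifi35, Ifi44, Rtp4, Xaf1).

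The libraries came from C57bl/6 mice aged 4 weeks. Control mice were Dyrk1a flox/flox, Mx1-Cre-, with both Dyrk1a alleles floxed and no Cre. The mice called CKO here were labelled Dyrk1a -/-, Mx1-Cre+. From each genotype 5 populations were sorted: large pre-B cells, small pre-B cells and mature granulocytes of the bone marrow, and cycling and quiescent CD4+CD8+ thymocytes. Every population and genotype is 1 library made from a pool of 2 mice, so no animal was measured on its own. Only the CKO mice carry the Cre transgene, so effects of Cre and of Dyrk1a loss cannot be told apart. The labels name no agent that induces Cre, so whether either pool received one is not known, and they name no surface markers or gates. DYRK1A is a protein kinase that acts on cell-cycle regulators, and the study set libraries of its loss beside controls in dividing and resting cells.

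Type I interferons (alpha and beta) signal through the receptor chains IFNAR1 and IFNAR2 and the kinases JAK1 and TYK2 to the complex ISGF3, which holds STAT2 and IRF9 and binds the interferon-stimulated response element (ISRE). Interferon gamma signals through IFNGR1 and IFNGR2 to the gamma-activated site (GAS), and it is a strong inducer of the immunity-related and guanylate-binding GTPases. The genes bear on the mouse model itself. In Mx1-Cre mice the Mx1 promoter, which interferon switches on, drives the recombinase, and Cre is commonly induced by giving interferon or double-stranded RNA. The row for Mx1 measures the endogenous gene and does not report Cre, and the Mx1 gene of C57BL/6 mice carries an internal deletion that leaves no working protein.

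Some facts of the whole series bear on the values. They are read as FPKM, a count of sequenced fragments divided by transcript length and by the size of the library, and the number of reads per library is not known. Lymphoid libraries added up to 360394 to 431868 FPKM each, control granulocytes to 830006 FPKM and CKO-labelled granulocytes to 1074260 FPKM, of which S100a8 alone gave 246142 FPKM. Dyrk1a was not lower in any CKO-labelled library (31.2 to 37.4 FPKM in the 5 controls, 34.4 to 44.7 FPKM in the 5 CKO-labelled libraries). The labels do not say which exons are lost, so the row cannot be used to check the genotype. The 4 Y-linked genes measured stood at 0 to 0.0598 FPKM in the 5 control libraries and at 1.16 to 58 FPKM in the 5 CKO-labelled ones, and Xist was present in all 10. The pools therefore differ in the sex of their mice, which cannot be told apart from the genotype. Pre-B, thymocyte and granulocyte markers stood where the labels place them, for instance Cd79a, a subunit of the B cell receptor, at 465 to 1238 FPKM in pre-B libraries and at most 6.71 FPKM elsewhere. A value of exactly 0 may stand for a failed estimate: S100a9, an abundant granulocyte transcript, is listed at 0 in both granulocyte libraries. S100a8 is listed at 0 in control granulocytes, so it enters the total of the CKO-labelled granulocyte library only. Neither its difference nor that of the 2 totals can be read as one of genotype.

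The upstream sequence of the members is shown first, because some of it holds letters that interferon signalling is known to use. Of the 41 members, 30 had an entry in the RefSeq promoter table (GRCm38.p6). Not in it were Usp18, Dhx58, Zbp1, Oas2, Mx1, Mx2, Iigp1, Ly6e, Parp9, Parp14 and Rtp4. The letters GAAANNGAAA of the ISRE (or TTTCNNTTTC, their reverse complement) were searched in the 250 bases before each start site. They were in 14 of the 30 members (46.7%) and in 936 of 27025 genes of the table (3.46%). The 14 were Tgtp1, Tgtp2, Igtp, Irgm1, Irgm2, Gbp2, Gbp3, Isg15, Stat2, Oas1a, Oas3, Ifit1, Ifit3 and Rsad2. The GAS letters TTCNNNGAA, which read the same on both strands, were in 8 of the 30 members (26.7%) and in 8.13% of all genes. These 8 were Tgtp1, Tgtp2, Igtp, Irgm2, Oas1a, Eif2ak2, Ifit2 and Isg20. The 2 motifs share the letters GAA and may overlap. A match says that the letters are there and nothing about binding in these cells. The stretches around the ISRE letters follow for 6 members with large differences below, 5′ to 3′ on the strand of the gene, with the matching letters in capitals.
Tgtp1 (chr11:48992289-48992348, minus strand): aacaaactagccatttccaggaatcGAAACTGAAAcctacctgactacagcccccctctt
Tgtp2 (chr11:49064248-49064307, minus strand): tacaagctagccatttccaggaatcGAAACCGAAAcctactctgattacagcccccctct
Igtp (chr11:58199497-58199555, plus strand): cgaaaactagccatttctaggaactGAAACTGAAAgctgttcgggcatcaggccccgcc
Gbp2 (chr3:142620579-142620638, plus strand): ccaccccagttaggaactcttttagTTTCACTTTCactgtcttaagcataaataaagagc
Isg15 (chr4:156200850-156200921, minus strand): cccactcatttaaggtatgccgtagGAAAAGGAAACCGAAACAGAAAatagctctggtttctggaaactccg
Oas3 (chr5:120777700-120777759, minus strand): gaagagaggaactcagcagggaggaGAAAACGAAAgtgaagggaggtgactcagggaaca

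The neighbours Tgtp1 and Tgtp2 hold the letters at 67 and 60 bases before the RefSeq start site, counted to the near end of the match. Their upstream sequences were 91.6% identical over 107 aligned bases. Igtp, another GTPase of the same family on the same chromosome, has the letters 24 bases before its start. In Gbp2 they lie on the opposite strand, 49 bases before the start. Isg15 carries 3 overlapping matches in a run of 22 bases. Oas3 has 1 match, 65 bases before its start.

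The members were most abundant in granulocytes. The median member stood at 3.18 to 5.70 FPKM in 7 of the 8 lymphoid libraries, at 9.03 FPKM in CKO-labelled small pre-B cells, and at 26.8 and 26.0 FPKM in control and CKO-labelled granulocytes. Between 28 and 40 of the 41 members reached 1 FPKM in a library. Of the 41, 28 had their highest value in granulocytes, 16 of them in the control and 12 in the CKO-labelled library. Another 10 were highest in CKO-labelled small pre-B cells. The other 3 were highest in control libraries, Stat2 in small pre-B cells, Igtp in quiescent thymocytes and Ly6e in cycling thymocytes. In bulk libraries like these, more cells of a kind that holds a transcript and more transcript per cell cannot be told apart.

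**Figure D1:**
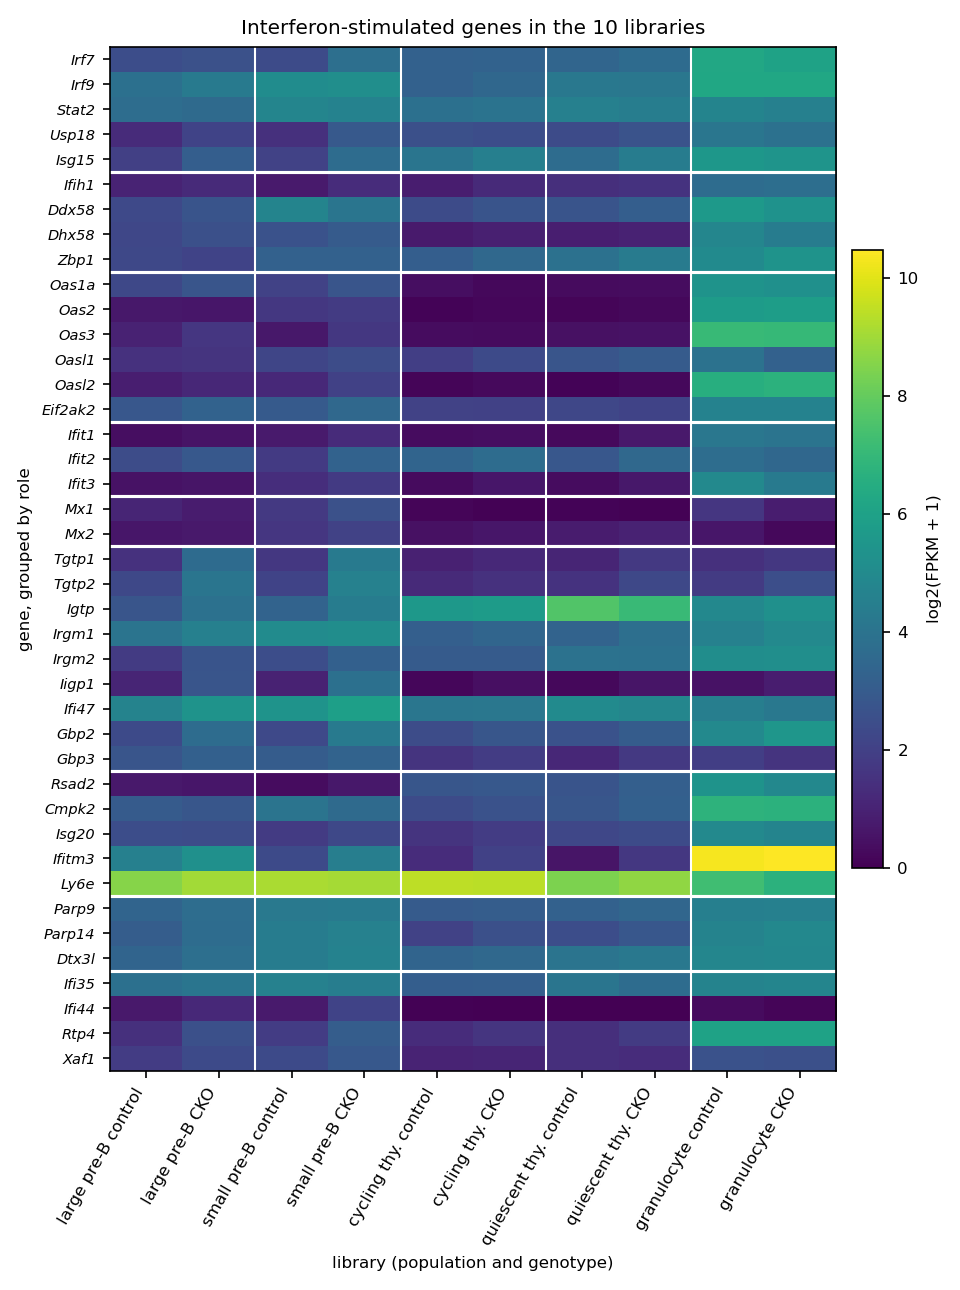
Levels of the 41 interferon-stimulated genes (rows, grouped by role) in the 10 libraries (columns), as log2(FPKM + 1) in colour. The 2 granulocyte columns are the brightest for most rows, while Ly6e is bright in every lymphoid column and the GTPases Tgtp1, Tgtp2 and Iigp1 are bright in the CKO-labelled pre-B columns.

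In pre-B cells the CKO-labelled libraries held more of many members, with the GTPases in front. In large pre-B cells, 24 members reached 5 FPKM in the higher library of the pair. Of these, 6 stood at least 2-fold higher in the CKO-labelled library and none stood at least 2-fold lower. The fold is the ratio of FPKM + 1. By the same rule 0.871% of 7920 genes were higher and 0.972% lower. In small pre-B cells, 11 of 29 members were past the 2-fold rule on the high side and none on the low side, with 4.52% of 8207 genes higher and 1.78% lower. Over all 41 members the median log2 ratio was 0.44 in large and 0.55 in small pre-B cells, and that over all genes was 0 in both. Over genes with at least 5 FPKM the all-gene medians were 0.03 and -0.10. The ratio was above 0 for 34 and 35 of the 41 members. These comparisons set 1 library against 1 library and have no test, and the count is sensitive to the constant added: with 5 FPKM in place of 1 FPKM, 2 members in large and 6 in small pre-B cells were past 2-fold.

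The inducible GTPases, which attack the vacuoles of parasites and bacteria inside cells, gave 5 of the genes past the rule in each pre-B population. They were Tgtp1, Tgtp2, Iigp1, Igtp and Gbp2 in both. All 9 GTPases had ratios above 0 in both populations, with medians of 1.15 and 1.06 on the log2 scale. In what follows, values come in the order large pre-B, small pre-B, cycling thymocyte, quiescent thymocyte, granulocyte.

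Tgtp1, a GTPase first found in T cells, stood at 1.78, 2.25, 0.968, 1.14 and 1.74 FPKM in the control libraries and 11.7, 18.9, 1.31, 2.31 and 2.22 FPKM in the CKO-labelled libraries. Its near copy Tgtp2 stood at 3.77, 3.34, 1.4, 1.94 and 2.54 FPKM in the control libraries and 15.8, 23.1, 1.78, 3.83 and 4.7 FPKM in the CKO-labelled libraries. The 2 CKO-labelled pre-B libraries were above the 8 other libraries for both genes, and none of those 8 passed 4.7 FPKM. The log2 ratio of CKO to control was 2.2 and 2.62 for Tgtp1 and 1.82 and 2.48 for Tgtp2 in large and small pre-B cells. Their longest coding transcripts are 99.8% identical over 2810 bases, so the reads of this pair may have been shared between them and the 2 rows are not independent. Iigp1, which coats the vacuole of Toxoplasma, stood at 1.09, 1.02, 0.129, 0.161 and 0.438 FPKM in the control libraries and 5.7, 13.8, 0.35, 0.515 and 0.812 FPKM in the CKO-labelled libraries. Outside the 2 CKO-labelled pre-B libraries it did not pass 1.09 FPKM, and its 2 pre-B pairs had log2 ratios of 1.68 and 2.87.

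Gbp2, a guanylate-binding protein that acts on the membranes of such vacuoles, stood at 4.13, 3.98, 4.39, 5.26 and 29.8 FPKM in the control libraries and 12.1, 18.6, 6.0, 7.23 and 44.6 FPKM in the CKO-labelled libraries. In both pre-B populations the control was near the thymocyte level and the CKO-labelled library above every thymocyte library, and granulocytes were higher still. Its log2 ratios were 1.35 and 1.98 in pre-B cells and 0.38, 0.39 and 0.57 in the other populations. Igtp, also named Irgm3, a regulator of the other GTPases, stood at 5.85, 9.13, 46.9, 195 and 29 FPKM in the control libraries and 14.2, 20.1, 52.9, 135 and 36.9 FPKM in the CKO-labelled libraries. In pre-B cells the CKO-labelled value was the higher one (log2 ratios 1.15 and 1.06), while in quiescent thymocytes, where Igtp was most abundant, it was the lower one (-0.53). The annotated spans of Igtp (chr11:58199556-58207591) and Irgm2 (chr11:58199618-58222782) overlap on the same strand in mm10 and their transcripts are 84.9% identical over 675 bases, so the split of reads between these 2 rows is uncertain.

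The other GTPases differed less. Irgm2 stood at 2.53, 4.52, 6.99, 14.6 and 34.3 FPKM in the control libraries and 5.65, 8.37, 7.06, 13.8 and 34.8 FPKM in the CKO-labelled libraries. Irgm1, a regulator of autophagy, stood at 15.3, 32.6, 7.88, 9.14 and 23.6 FPKM in the control libraries and 22.7, 34.6, 9.77, 13 and 29.7 FPKM in the CKO-labelled libraries. Ifi47, on its joined row, stood at 24.9, 40.5, 16.5, 31.3 and 21.3 FPKM in the control libraries and 40.9, 59.6, 17, 26.8 and 17.3 FPKM in the CKO-labelled libraries. For these 3 the CKO-labelled value was the higher one in both pre-B populations, with log2 ratios of 0.08 (Irgm1 in small pre-B cells) to 0.92 (Irgm2 in large pre-B cells), none past 2-fold. Gbp3, another guanylate-binding protein, stood at 5.75, 7.33, 1.96, 1.22 and 2.81 FPKM in the control libraries and 8.25, 9.03, 2.67, 2.38 and 1.94 FPKM in the CKO-labelled libraries, with its CKO-labelled value higher in all 4 lymphoid populations and lower in granulocytes. The genes lie close together in mm10: Irgm1, Tgtp1, Tgtp2 and Ifi47 fall between 48861968 and 49096974 on chromosome 11, with Igtp and Irgm2 farther along it, and Gbp2 and Gbp3 lie near each other on chromosome 3. In all, 9 members are on chromosome 11.

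**Figure D2:**
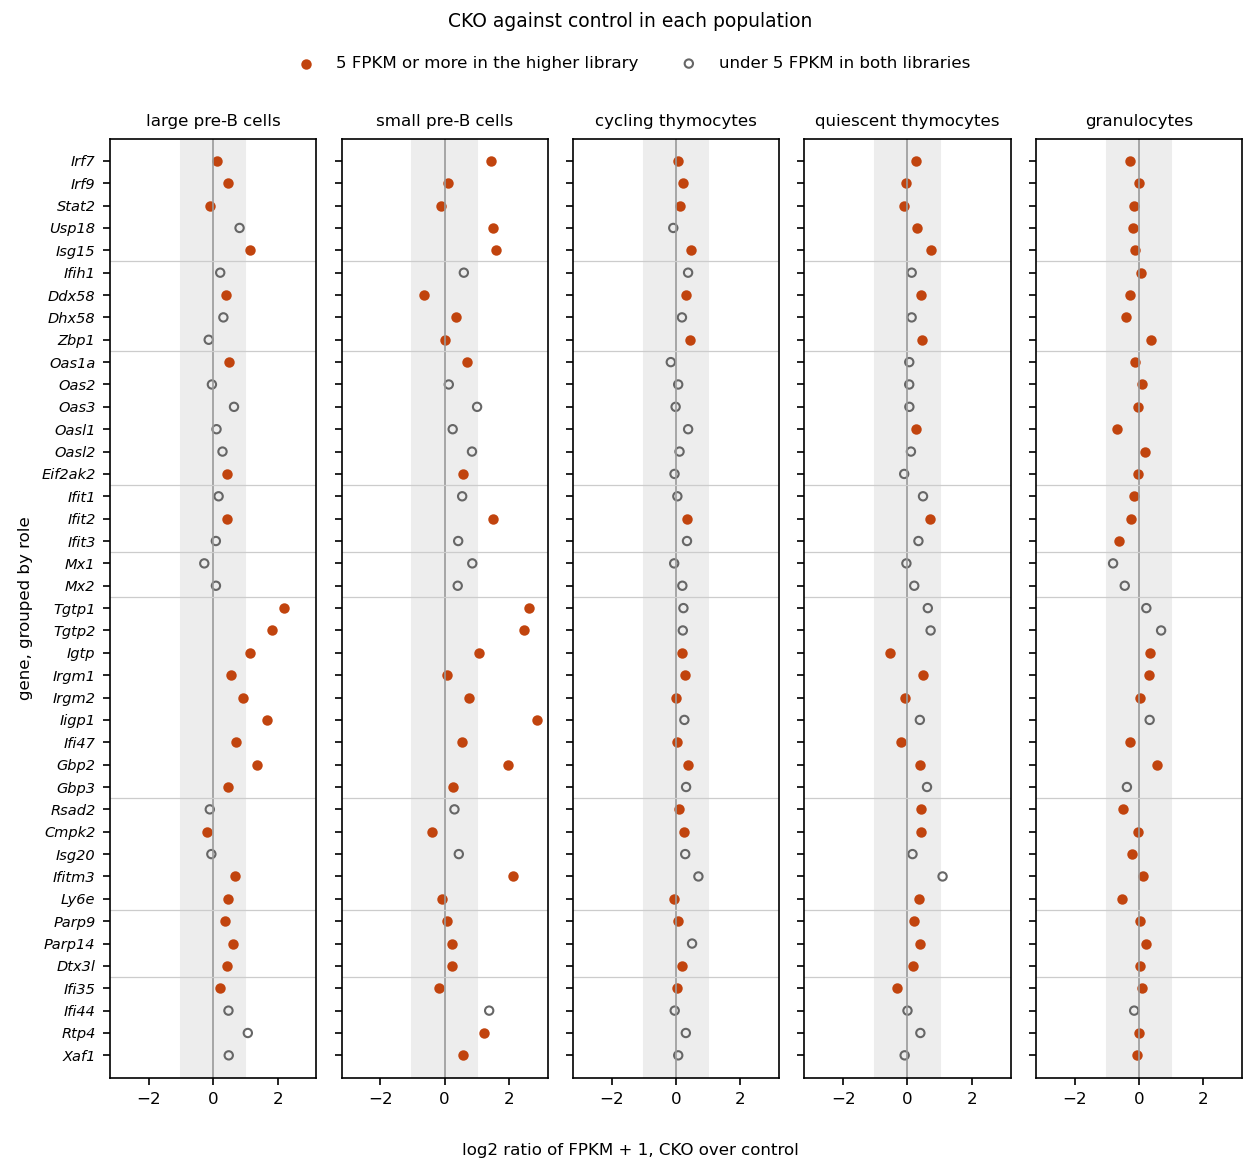
Log2 ratio of FPKM + 1, CKO-labelled over control, for each of the 41 members (rows, grouped by role) in each population (panels). Filled points reach 5 FPKM in at least 1 of the 2 libraries, open points do not, and the grey band spans a 2-fold difference either way. Filled points lie to the right of the band for 6 members in large and 11 in small pre-B cells and for none in the other 3 panels.

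Among the genes of transcription and feedback, the 2-fold rule picked Isg15 in both pre-B populations and Irf7 and Usp18 in small pre-B cells. Isg15, a ubiquitin-like protein that is attached to other proteins, stood at 2.97, 3.23, 15.9, 11.9 and 46.3 FPKM in the control libraries and 7.78, 11.8, 22.1, 20.3 and 42.4 FPKM in the CKO-labelled libraries. The CKO-labelled value was higher in all 4 lymphoid populations (log2 ratios 1.14, 1.6, 0.45 and 0.73) and slightly lower in granulocytes (-0.12). Usp18, the protease that removes ISG15 and blocks signalling at IFNAR2, stood at 1.43, 1.72, 4.88, 4.21 and 16.2 FPKM in the control libraries and 3.28, 6.63, 4.54, 5.34 and 14.2 FPKM in the CKO-labelled libraries. Irf7, the transcription factor that amplifies type I interferon production, stood at 4.6, 4.18, 8.47, 9.71 and 77.5 FPKM in the control libraries and 5.1, 13.1, 8.94, 11.8 and 64.5 FPKM in the CKO-labelled libraries. For Irf7 the pre-B ratio was 1.45 in small and 0.12 in large pre-B cells, so the difference rests on the small pre-B pair.

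The ISGF3 subunits Irf9 and Stat2 differed by less than 2-fold in every population. Irf9 stood at 13.5, 32.9, 8.52, 17.5 and 74.6 FPKM in the control libraries and 19.1, 35.1, 10.2, 16.7 and 75.5 FPKM in the CKO-labelled libraries. Stat2 stood at 12.2, 26, 13.7, 22.5 and 25.5 FPKM in the control libraries and 11.3, 24.2, 14.9, 20.6 and 22.7 FPKM in the CKO-labelled libraries. The log2 ratios of Irf9 in the 5 populations ran from -0.06 to 0.47, and those of Stat2 from -0.16 to 0.12.

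**Figure D3:**
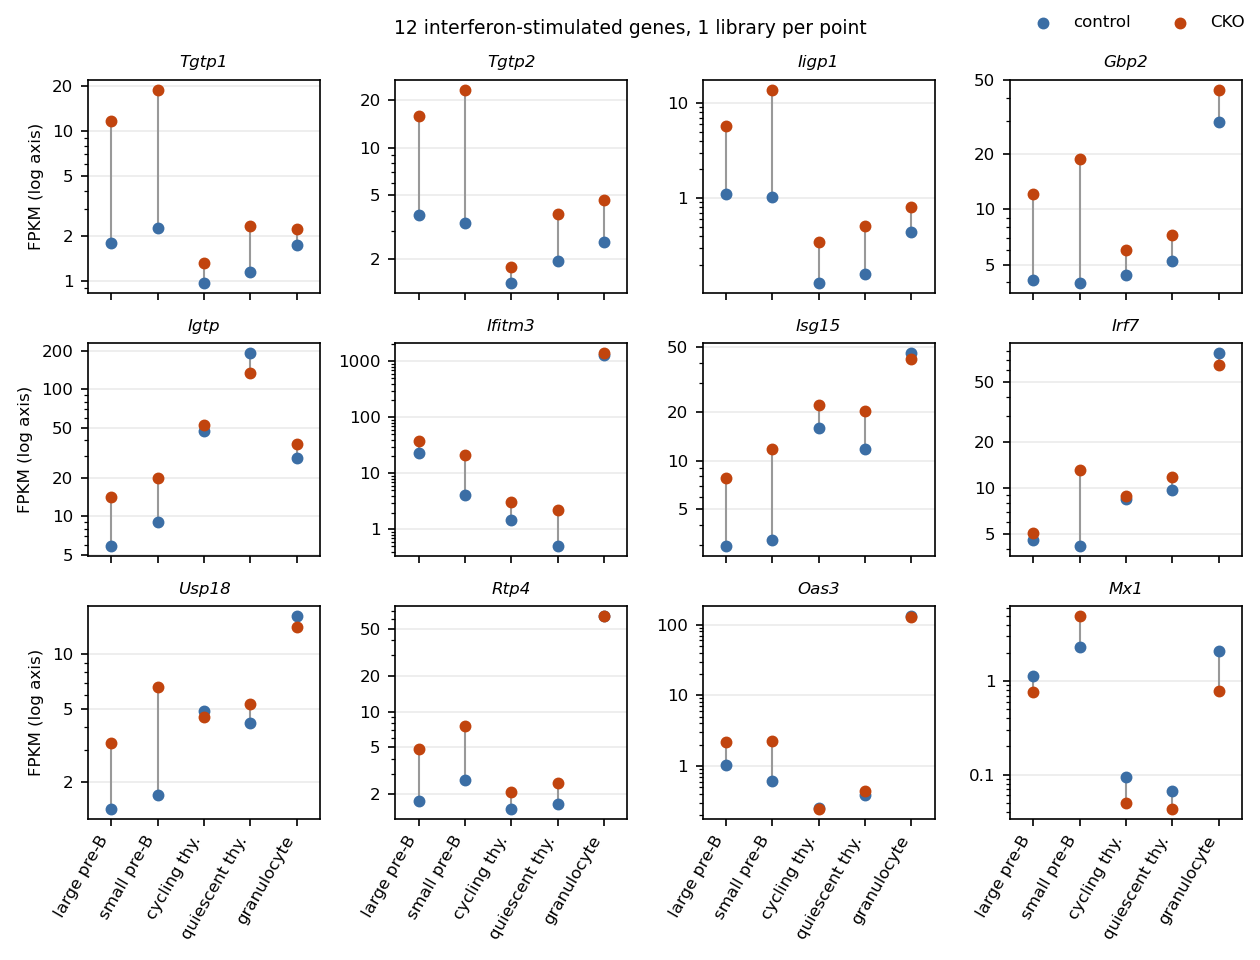
FPKM (log axis, scaled for each gene) of 12 members in the 5 populations, 1 point per library, with the control and the CKO-labelled library of a population joined by a line. The joining lines are long in both pre-B populations for Tgtp1, Tgtp2, Iigp1, Gbp2 and Isg15 and long in small pre-B cells alone for Irf7, and the granulocyte points are the highest for Gbp2, Ifitm3, Isg15, Irf7, Usp18, Rtp4 and Oas3.

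Small pre-B cells added several effectors to the GTPases. Ifitm3, a membrane protein that blocks virus entry, stood at 22.8, 4.14, 1.49, 0.505 and 1301 FPKM in the control libraries and 37.1, 21.4, 3.04, 2.2 and 1420.2 FPKM in the CKO-labelled libraries. Its log2 ratio was 2.13 in small and 0.68 in large pre-B cells, and in small pre-B cells the control was far below both large pre-B libraries. Ifit2, of a family that binds viral RNA, stood at 4.47, 2.48, 9.3, 6.13 and 12.6 FPKM in the control libraries and 6.42, 8.82, 11.9, 10.6 and 10.5 FPKM in the CKO-labelled libraries, with ratios of 1.5 in small and 0.44 in large pre-B cells. The other IFIT genes were low in lymphoid cells. Ifit1 stood at 0.293, 0.698, 0.256, 0.192 and 16.9 FPKM in the control libraries and 0.453, 1.48, 0.292, 0.665 and 15.3 FPKM in the CKO-labelled libraries. Ifit3 stood at 0.433, 1.59, 0.23, 0.276 and 29.6 FPKM in the control libraries and 0.518, 2.47, 0.556, 0.615 and 18.8 FPKM in the CKO-labelled libraries. Rtp4, a chaperone of membrane receptors, stood at 1.76, 2.65, 1.5, 1.66 and 64.2 FPKM in the control libraries and 4.82, 7.58, 2.09, 2.51 and 64 FPKM in the CKO-labelled libraries. Its ratios were 1.23 and 1.08, in small and large pre-B cells, the second not counted because neither large pre-B library reached 5 FPKM. Ifi44 stood at 0.66, 0.674, 0.0293, 0 and 0.238 FPKM in the control libraries and 1.31, 3.37, 0, 0 and 0.117 FPKM in the CKO-labelled libraries, with a ratio of 1.38 in small pre-B cells that the same minimum leaves out.

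The 2 Mx genes, dynamin-like antiviral GTPases, were low everywhere. Mx1 stood at 1.12, 2.3, 0.0931, 0.0673 and 2.11 FPKM in the control libraries and 0.755, 4.99, 0.050, 0.0427 and 0.786 FPKM in the CKO-labelled libraries. Mx2 stood at 0.564, 2.14, 0.372, 0.749 and 0.571 FPKM in the control libraries and 0.659, 3.17, 0.571, 1.02 and 0.158 FPKM in the CKO-labelled libraries. Both were highest in CKO-labelled small pre-B cells and both were lower in CKO-labelled than in control granulocytes, and neither reached 5 FPKM in any library. The aligned parts of their transcripts, 919 bases, are 94.9% identical, so reads may have been shared between these rows. Mx1 and Mx2 lie 2.75 and 2.84 Mb from Dyrk1a on chromosome 16, and the genes of the receptor chains Ifnar1, Ifnar2 and Ifngr2 lie 3.06, 3.16 and 3.0 Mb from it.

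The oligoadenylate synthetases make the second messenger that activates the nuclease RNase L. With PKR, 5 of the 6 ratios were above 0 in large and 6 of 6 in small pre-B cells, and none passed the rule. Oas3 stood at 1.02, 0.618, 0.256, 0.382 and 133 FPKM in the control libraries and 2.16, 2.25, 0.245, 0.439 and 129.6 FPKM in the CKO-labelled libraries. Oasl2 stood at 0.844, 1.28, 0.111, 0.0708 and 92.6 FPKM in the control libraries and 1.25, 3.1, 0.197, 0.153 and 105 FPKM in the CKO-labelled libraries. Oas1a stood at 3.84, 3.21, 0.327, 0.23 and 40.1 FPKM in the control libraries and 5.8, 5.8, 0.185, 0.278 and 36.9 FPKM in the CKO-labelled libraries. In small pre-B cells the log2 ratios of the family with PKR ran from 0.13 (Oas2) to 1.01 (Oas3), all 6 above 0. Oas3 passes 2-fold there but reaches only 2.25 FPKM. Oas1a shares 97.5% of 1860 aligned bases with Oas1g, which is not a member, so its row may hold reads of that copy. The remaining genes of the group were Oas2 at 0.598, 2.26, 0.0748, 0.119 and 52.9 FPKM in the control libraries and 0.555, 2.57, 0.125, 0.161 and 56.2 FPKM in the CKO-labelled libraries, and Oasl1 at 1.78, 3.57, 2.9, 5.83 and 14.5 FPKM in the control libraries and 1.99, 4.44, 4.06, 7.14 and 8.59 FPKM in the CKO-labelled libraries. Eif2ak2, which encodes the RNA-activated kinase PKR, stood at 6.17, 6.81, 3.18, 3.64 and 24.3 FPKM in the control libraries and 8.72, 10.5, 3.05, 3.32 and 23.7 FPKM in the CKO-labelled libraries. None of these 3 was past 2-fold in any population.

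Of the sensors, Ddx58 (RIG-I, which detects viral RNA) went the other way in small pre-B cells. It stood at 4.02, 25.4, 4.27, 5.54 and 48.7 FPKM in the control libraries and 5.56, 15.9, 5.51, 7.75 and 39.6 FPKM in the CKO-labelled libraries, a log2 ratio of -0.65 there and 0.39 in large pre-B cells. Cmpk2, a nucleotide kinase of mitochondria, was lower in both CKO-labelled pre-B libraries (6.95 and 6.02 FPKM in large, 15.2 and 11.3 FPKM in small pre-B cells, control first). In pre-B cells the lowest ratios of any member were those of Ddx58 and Cmpk2 (-0.40) in small pre-B cells and that of Mx1 (-0.28) in large pre-B cells. The sensor Ifih1 (MDA5) stood at 1.06, 0.678, 0.81, 1.68 and 12.1 FPKM in the control libraries and 1.4, 1.54, 1.35, 1.93 and 12.8 FPKM in the CKO-labelled libraries. Dhx58 (LGP2) stood at 3.72, 5.28, 0.674, 0.848 and 26.9 FPKM in the control libraries and 4.88, 6.98, 0.90, 1.02 and 20.1 FPKM in the CKO-labelled libraries. Zbp1, a sensor of left-handed nucleic acid that can trigger cell death, stood at 3.79, 8.44, 7.64, 13.9 and 30.9 FPKM in the control libraries and 3.35, 8.42, 10.6, 19.5 and 40.2 FPKM in the CKO-labelled libraries. In pre-B cells the ratios of these 3 lay between -0.14 and 0.60.

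Markers of other cell types also differed within the pre-B pairs, some in the members' direction and some in the other. Of 19 plasmacytoid dendritic cell markers, 10 of the 15 with at least 5 FPKM were past 2-fold higher and 1 lower in CKO-labelled small pre-B cells (median log2 ratio over 19 1.93). Of all genes 4.52% were higher and 1.78% lower there by the 2-fold rule. In large pre-B cells none was past it and the median was -0.39. Siglech, which defines these cells, stood at 2.25 and 41.5 FPKM in control and CKO-labelled small pre-B cells and at 7.99 and 3.76 FPKM in large pre-B cells. Runx2 stood at 1.06 and 28.1 FPKM and Cd300c at 0.578 and 12.7 FPKM in small pre-B cells. Of this list Bst2, Irf8, Tlr7 and Tlr9 belong to the interferon lists as well. The list's summed level was dominated by Spib and Ly6d, which pre-B cells express too, and went from 1995 to 1529 FPKM in small and from 508 to 405 FPKM in large pre-B cells.

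Most natural killer and cytotoxic markers were higher in both CKO-labelled pre-B libraries (12 of 14 ratios above 0 in large, 14 of 14 in small pre-B cells). Of the 14, 4 of 10 above the minimum were past 2-fold higher in large and 8 of 8 in small pre-B cells, none was lower, and the median log2 ratios over 14 were 0.84 and 1.93. Of all genes 0.871% were higher in large and 4.52% in small pre-B cells, and 0.972% and 1.78% were lower. The summed level of the list went from 176 to 199 FPKM in large and from 45.6 to 255 FPKM in small pre-B cells. Gzma, a granzyme, stood at 9.95 and 41.6 FPKM in large and 2.03 and 23.3 FPKM in small pre-B cells, control first, and the natural killer receptor gene Ncr1 at 3.09 and 6.6 and 0.40 and 4.27 FPKM. No marker of either list was at 0 in a pre-B library. Monocyte and macrophage markers were lower in CKO-labelled large pre-B cells (12 of 12 ratios below 0, median -0.81, summed level 509.7 to 217 FPKM). There 5 of the 9 with at least 5 FPKM were past 2-fold lower and none higher. In small pre-B cells 7 of 12 ratios were above 0 and 5 below (median 0.11). Of the 5 with at least 5 FPKM there, 3 were past 2-fold higher and none lower (median 1.97). Their list's summed level went from 117 to 237 FPKM. Granulocyte markers were mostly lower in the CKO-labelled libraries (14 of 16 ratios below 0 in large and 16 of 16 in small pre-B cells). Proliferation markers were higher in CKO-labelled small pre-B cells (8 of 8 above 0, median 1.11), against 0.10 in large pre-B cells. The part of any of these in the members' differences was not tested.

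**Figure D4:**
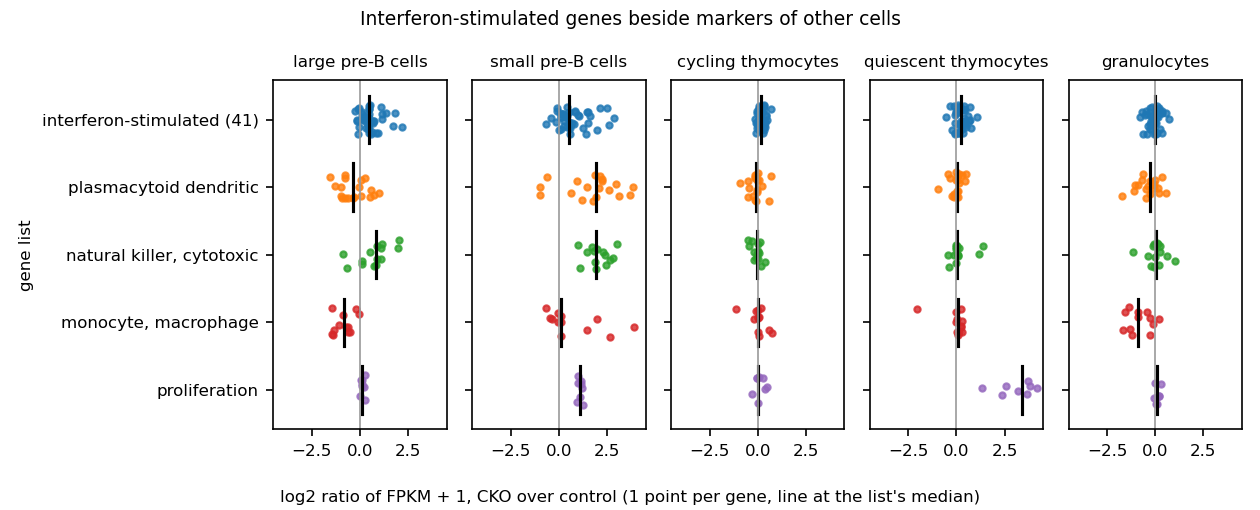
Log2 ratio of FPKM + 1, CKO-labelled over control, by population (panels) for the 41 members and 4 marker lists, 1 point per gene, with a line at each list's median. In small pre-B cells the plasmacytoid dendritic, natural killer and proliferation lists lie to the right with the members, and in large pre-B cells the natural killer list does, while in granulocytes the members centre on 0.

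Thymocytes and granulocytes showed no member past the rule. In cycling thymocytes 0 of 18 and in quiescent thymocytes 0 of 21 members were past 2-fold in either direction, with 0.374% and 3.66% of all genes higher and 0.580% and 1.60% lower. The ratio was above 0 for 34 and 31 of the 41 members, with medians of 0.18 and 0.25. Ifitm3 passed 2-fold in quiescent thymocytes but from 0.505 to 2.2 FPKM. Proliferation markers differed far more there: all 8 were past 2-fold higher in CKO-labelled quiescent thymocytes (median 3.4). In granulocytes 0 of 34 members were past the rule (0.571% of genes higher, 1.76% lower), 17 ratios were above 0 and 24 below, and the median was -0.04. The IFIT genes were all lower in CKO-labelled granulocytes: Ifit1 stood at 16.9 and 15.3 FPKM, Ifit2 at 12.6 and 10.5 FPKM and Ifit3 at 29.6 and 18.8 FPKM, control first. Monocyte and macrophage markers were lower in the same library (11 of 12 ratios below 0, median -0.89), and their part was not tested.

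Across populations, limma called no member different between genotypes. With the 4 lymphoid populations as a block, 40 members could be tested (Ifit1 did not reach 1 FPKM in 2 of the 8 libraries), and 0 were called higher and 0 lower at an adjusted p of 0.05, against 0.0270% and 0.00899% of 11126 genes. At an unadjusted p under 0.05, 16 members were higher and 0 lower, against 935 and 932 of all genes. Of the 40 differences 38 were above 0, with a median of 0.28 on the log2 scale beside -0.01 over all genes. The 38 include Ifi44, which reached 1 FPKM only in the 2 CKO-labelled pre-B libraries and passed the filter only through them. They also include Mx2, Ifit3, Oas2, Oasl2 and Oas3, which reached 1 FPKM in 1 of the 4 control libraries. These 5 would not have passed on control libraries alone, and Ifit3 is among the 16. The lowest adjusted p of a member was that of Isg15, which was higher by 0.98 (SE 0.19, adjusted p = 0.19) and higher in 4 of 4 populations. Ifitm3 was higher by 1.15 (SE 0.26, adjusted p = 0.23), Tgtp1 by 1.42 (SE 0.43, adjusted p = 0.25), Tgtp2 by 1.31 (SE 0.38, adjusted p = 0.25), Iigp1 by 1.3 (SE 0.45, adjusted p = 0.26) and Gbp2 by 1.03 (SE 0.29, adjusted p = 0.25). All 6 were higher in each of the 4 populations. With granulocytes added, all 41 members were tested, again with 0 called (0.0341% of 11715 genes higher, 0.0171% lower) and 13 higher and 0 lower at an unadjusted p under 0.05, against 892 and 1078 of all genes. All populations of a genotype were sorted from the same pool of mice, so these p-values measure the spread between populations and not between animals. A p above the threshold does not show that the genotypes are alike.

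The genotype difference was then compared between lineages. For pre-B cells minus thymocytes, limma called 0 of 40 members (0% and 0.00899% of genes), with 15 above and 2 below 0 at an unadjusted p under 0.05 (849 and 748 of all genes). Of the 15, Ifi44, Iigp1, Oas1a and Oas3 did not reach 1 FPKM in any thymocyte library and passed the filter only through pre-B cells. The difference of differences was 1.98 (SE 0.24, adjusted p = 0.10) for Tgtp1, 1.68 (SE 0.30, adjusted p = 0.13) for Tgtp2, 1.95 (SE 0.40, adjusted p = 0.15) for Iigp1, 1.28 (SE 0.25, adjusted p = 0.14) for Gbp2 and 1.28 (SE 0.25, adjusted p = 0.14) for Igtp. The median was 1.28 for the 9 GTPases, 0.27 for the 40 members and -0.03 for all genes. Without the small pre-B libraries, Ifitm3 changed sign in this contrast (to -0.21) and Irf7 was at -0.040. No member was called, or had an unadjusted p under 0.05, for a genotype difference that depended on the resting state (0.00899% of genes called in each direction).

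The genes upstream of the members were then read from lists of the pathway. Of 17 interferon genes measured, 16 did not pass 0.181 FPKM in any of the 10 libraries. The exception was Ifng, the gene of interferon gamma, which natural killer and T cells make, at 0.325 and 0.781 FPKM in large and 0.364 and 1.03 FPKM in small pre-B cells, control first, and at most 0.175 FPKM elsewhere. Bulk RNA of the responding cells does not measure interferon protein that reaches them from other cells. All 5 receptor genes measured were present, and none was called between genotypes. Ifnar1 stood at 10.7, 18.8, 17.2, 30.2 and 31.8 FPKM in the control libraries and 12.7, 19.1, 15.9, 26 and 34.6 FPKM in the CKO-labelled libraries, and Ifnar2 at 23.5, 15.1, 27.7, 18.3 and 107 FPKM in the control libraries and 27.1, 25.1, 24.3, 18.1 and 106 FPKM in the CKO-labelled libraries.

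Of 15 kinases, STATs and IRFs none was called between genotypes in the lymphoid comparison, and the median difference was -0.05. Irf1, a direct target of interferon gamma, stood at 28.7, 63.3, 57.9, 68.5 and 125 FPKM in the control libraries and 42.9, 83.4, 57.2, 88.5 and 185 FPKM in the CKO-labelled libraries. Its CKO-labelled values were the higher ones in both pre-B populations, in quiescent thymocytes and in granulocytes, each by less than 2-fold. In cycling thymocytes the CKO-labelled value was slightly lower. Irf8, which serves B cells and dendritic cells, went from 92.5 to 212 FPKM in small pre-B cells and from 81 to 82.5 FPKM in large pre-B cells. Of 14 brakes none was called. Their ratios split in pre-B cells, with 8 above and 6 below 0 in large (median 0.08) and 7 and 7 in small pre-B cells (median -0.01). Among those below 0 was Socs1, which inhibits JAK kinases (11.6 and 5.96 FPKM in large, 62.5 and 24 FPKM in small pre-B cells, control first).

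A further list of 52 interferon-stimulated genes outside the 41 was read the same way. In large pre-B cells 4 of 35 above the minimum were past 2-fold higher and none lower, and in small pre-B cells 8 of 40 were higher and 1 lower, with medians over 52 of 0.20 and 0.09. Both medians are below those of the 41. By the same rule 0.871% of all genes were higher and 0.972% lower in large pre-B cells. In small pre-B cells 4.52% were higher and 1.78% lower. Gbp7 stood at 4.77 and 13.6 FPKM in large and 2.39 and 14.2 FPKM in small pre-B cells and Gbp6 at 1.04 and 3.37 and 1.46 and 6.45 FPKM, control first. Bst2, which tethers virus particles and also marks plasmacytoid dendritic cells, stood at 32.9 and 48.6 and 21.1 and 134 FPKM. Of the 48 that could be tested in the lymphoid comparison none was called, 37 were above 0 and the median was 0.12.

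Most members were called different between granulocytes and pre-B cells, as were most genes. In granulocytes against pre-B cells, limma called 30 of 41 members higher and 6 lower, against 41% and 36.7% of 11715 genes. All 5 genes of transcription and feedback, all 4 sensors, all 6 of the OAS and PKR group, Ifit2 and Ifit3, and all 3 PARP and DTX3L genes were higher. Ifit1 was also called higher, but it reached 1 FPKM in 1 of the 8 other libraries and so passed the filter on low values only through granulocytes. Of the 6 lower calls, those of Iigp1, Mx2 and Ifi44 likewise passed it only through pre-B cells. Ifitm3 was higher by 6.24 (SE 0.36, adjusted p = 4.7e-06) on the log2 scale, Oas3 by 5.78 (SE 0.24, adjusted p = 1.1e-06), Oasl2 by 5.32 (SE 0.18, adjusted p = 4.0e-07), Oas2 by 4.58 (SE 0.10, adjusted p = 9.0e-08) and Rsad2 by 4.54 (SE 0.19, adjusted p = 1.2e-06). Rsad2, the radical SAM enzyme viperin, stood at 0.661, 0.291, 5.93, 5.63 and 40.7 FPKM in the control libraries and 0.544, 0.595, 6.41, 7.9 and 28.8 FPKM in the CKO-labelled libraries. The GTPases split, with Irgm2, Gbp2 and Igtp higher, Iigp1, Gbp3 and Ifi47 lower, and Tgtp1, Tgtp2 and Irgm1 not called. The call of Iigp1 was lost with a pseudocount of 5 FPKM (adjusted p = 0.083), without a filter (adjusted p = 0.080) and without a genotype term (adjusted p = 0.11). No population and genotype had a replicate library, so the spread in the fit comes from differences between control and CKO-labelled libraries across populations. The p-values given here, and those of the population comparisons below, therefore do not measure spread between animals or between repeated sorts.

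The values of 27 members in the 2 granulocyte libraries lay above all 8 lymphoid libraries, against 31.7% of genes, and those of 1 member, Ly6e, below all 8, against 25.3% of genes. The 27 include Ifit1, which passed the filter only through granulocytes. Ly6e, a surface protein anchored by a lipid and the most abundant member of lymphoid cells, stood at 383, 562, 698, 336 and 153 FPKM in the control libraries and 525, 526, 665, 426 and 105 FPKM in the CKO-labelled libraries. Granulocytes were below pre-B cells by 1.95 (SE 0.20, adjusted p = 7.7e-05). Cmpk2, which lies beside Rsad2 on chromosome 12, stood at 6.95, 15.2, 4.24, 6.02 and 108 FPKM in the control libraries and 6.02, 11.3, 5.15, 8.35 and 107 FPKM in the CKO-labelled libraries. Isg20, an exonuclease, stood at 4.54, 2.57, 1.99, 3.7 and 29.5 FPKM in the control libraries and 4.33, 3.84, 2.65, 4.24 and 25.4 FPKM in the CKO-labelled libraries. When libraries were rescaled by median ratios, the median of all genes in this comparison went from 0.03 to -0.07, and the counts of members were within 1.5 times those given. Without the small pre-B libraries 32 were higher and 5 lower.

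**Figure D5:**
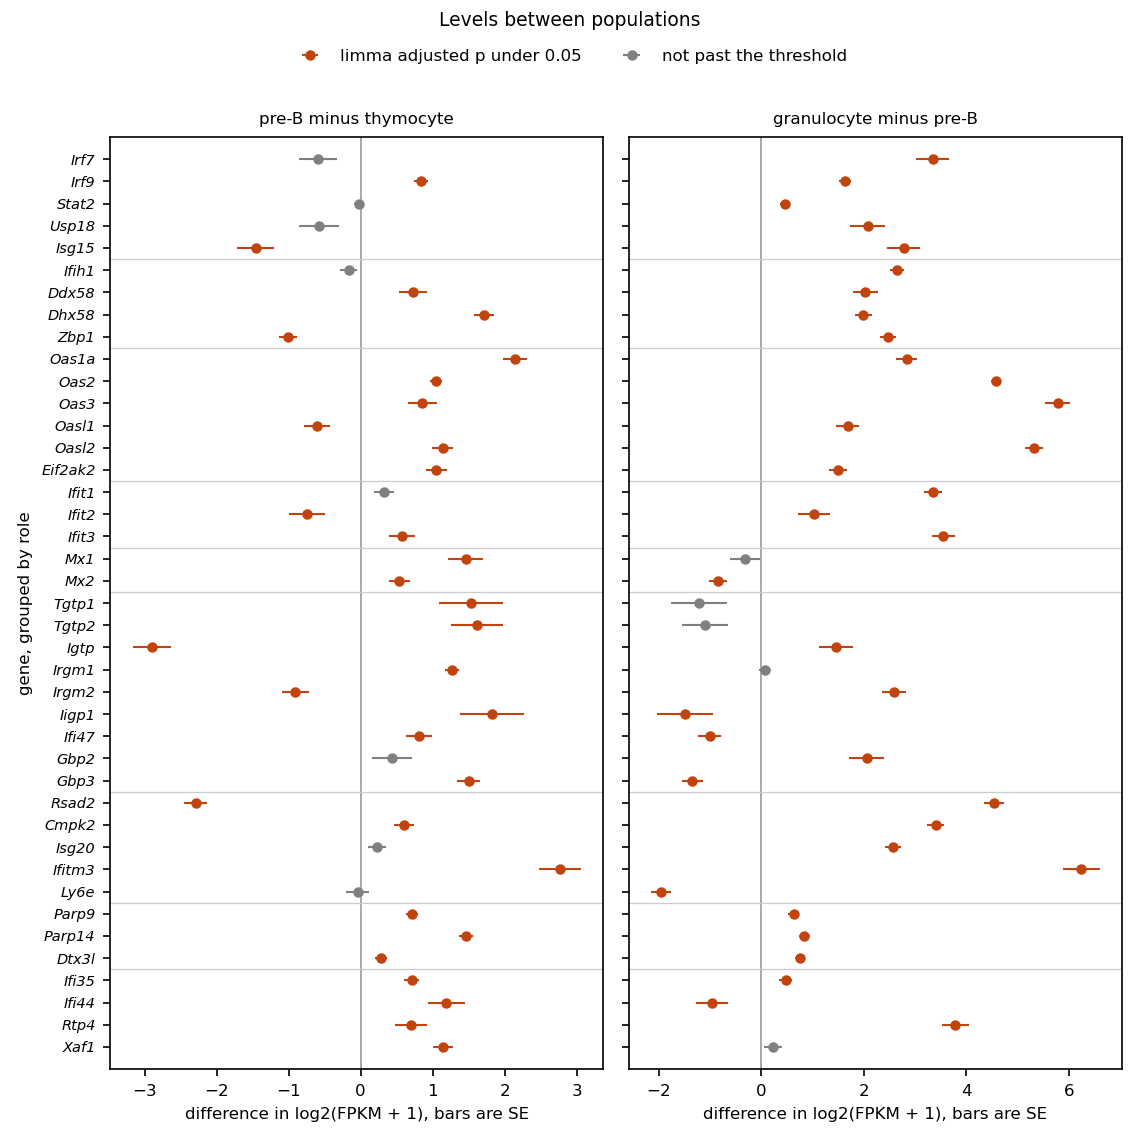
Difference in log2(FPKM + 1) between populations for each member (rows, grouped by role), with bars of 1 SE from limma: pre-B cells minus thymocytes (left) and granulocytes minus pre-B cells (right). Coloured points are past an adjusted p of 0.05. On the left 26 coloured points lie above 0 and 7 below, with Ifitm3 farthest to the right and Igtp farthest to the left. On the right 30 lie above 0 and 6 below.

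In pre-B cells against thymocytes, 26 of 41 members were called higher and 7 lower by limma, against 36.5% and 33.2% of 11715 genes. Higher in pre-B cells were all 3 of the PARP and DTX3L group, 5 of 6 of the OAS and PKR group, and Rtp4, Ifi35 and Xaf1. Mx1, Mx2, Iigp1 and Ifi44 were also called higher, but each reached 1 FPKM in at most 1 of the 6 libraries outside pre-B cells and passed the filter only through pre-B cells, which leaves 22 of the 26. The calls of Dtx3l (adjusted p = 0.065) and Rtp4 (adjusted p = 0.086) were lost without a genotype term, and that of Mx2 with a pseudocount of 0.1 FPKM (adjusted p = 0.052). The size was 2.77 (SE 0.29, adjusted p = 1.7e-04) for Ifitm3, 2.14 (SE 0.17, adjusted p = 4.2e-05) for Oas1a, 1.82 (SE 0.45, adjusted p = 0.009) for Iigp1, 1.72 (SE 0.14, adjusted p = 5.3e-05) for Dhx58 and 1.47 (SE 0.09, adjusted p = 2.0e-05) for Parp14. Lower in pre-B cells were Igtp, with a difference of -2.9 (SE 0.27, adjusted p = 9.8e-05), Rsad2 with -2.29 (SE 0.16, adjusted p = 2.5e-05) and Isg15 with -1.46 (SE 0.26, adjusted p = 0.0021), and with smaller differences Zbp1, Irgm2, Ifit2 and Oasl1. The call of Ifit2 was lost without a filter (adjusted p = 0.065) and without a genotype term (adjusted p = 0.076), and that of Oasl1 with a pseudocount of 5 FPKM (adjusted p = 0.051). Without the small pre-B libraries 18 members were higher and 10 lower, so the balance of the 2 counts depends on that pair, and Dtx3l changed sign (to -0.18). Without overlap between the 4 pre-B and the 4 thymocyte libraries, 14 members lay above (22.9% of genes) and 3 below (22.2%), the 3 being Igtp, Isg15 and Rsad2. The 14 include Mx1, Iigp1 and Ifi44, which passed the filter only through pre-B cells.

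Some members were near or at the floor in thymocytes. Ifi44 was listed at 0 in 3 of the 4 thymocyte libraries and Mx1 did not pass 0.0931 FPKM there. Oas2 and Oasl2 did not pass 0.197 FPKM. Igtp, by contrast, reached 195 FPKM in control quiescent thymocytes, its highest value. The PARP and DTX3L group was present in every library. PARP9 and the ubiquitin ligase DTX3L form a complex, and PARP14 attaches ADP-ribose to proteins. Parp14 stood at 7.54, 20, 3.18, 4.53 and 24.7 FPKM in the control libraries and 12, 23.5, 4.89, 6.19 and 28.9 FPKM in the CKO-labelled libraries. Parp9 stood at 9.26, 18, 7.14, 8.51 and 22 FPKM in the control libraries and 12.3, 18.8, 7.47, 9.83 and 22.7 FPKM in the CKO-labelled libraries. Dtx3l, whose gene overlaps that of Parp9, stood at 9.35, 20.4, 9.27, 15.3 and 26.8 FPKM in the control libraries and 13.1, 23.8, 10.5, 17.3 and 27.4 FPKM in the CKO-labelled libraries.

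Small pre-B cells held more of several members than large pre-B cells. In small against large pre-B cells limma called 21 of 40 members higher and 1 lower, against 25.6% and 21.8% of 11126 genes. The largest increases were 1.88 (SE 0.25, adjusted p = 0.0053) for Ddx58, 1.2 (SE 0.27, adjusted p = 0.018) for Mx1, 1.17 (SE 0.14, adjusted p = 0.0045) for Mx2, 1.11 (SE 0.12, adjusted p = 0.0042) for Oas2 and 1.1 (SE 0.14, adjusted p = 0.005) for Parp14. Stat2 (1.03) and Irf9 (1.03), both subunits of ISGF3, also rose, and Ifitm3 alone fell, by 1.49 (SE 0.34, adjusted p = 0.02). A filter of 5 FPKM, which left 29 members, gave 13 higher, and without a filter 15 were higher and none lower, with the calls of Mx1 (adjusted p = 0.062) and Ifitm3 (adjusted p = 0.073) lost. Mx1, Mx2, Oas2, Oasl2 and Ifit3 passed the filter of 1 FPKM only through small pre-B cells, which leaves 16 of the 21.

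In quiescent against cycling thymocytes 11 of 40 members were called higher and 1 lower, against 25.2% and 19.7% of genes. The share called higher was near that of all genes, and the share called lower was below it. Igtp rose by 1.68 (SE 0.18, adjusted p = 0.0065), Irgm2 by 0.92 (SE 0.12, adjusted p = 0.0069), Irf9 by 0.81 (SE 0.14, adjusted p = 0.011) and Zbp1 by 0.80 (SE 0.11, adjusted p = 0.0077), and Ifi47, Oasl1, Ifi35, Dtx3l, Isg20, Stat2 and Cmpk2 rose by 0.51 to 0.76. Ly6e fell by 0.85 (SE 0.17, adjusted p = 0.015), a call lost without a filter, as were those of Ifi35, Isg20 and Cmpk2. Ifi35, an interferon-induced leucine zipper protein, stood at 13.4, 23.3, 7.82, 15.6 and 24.5 FPKM in the control libraries and 15.7, 20.6, 8.0, 12.2 and 26 FPKM in the CKO-labelled libraries, and Xaf1, a partner of the apoptosis inhibitor XIAP, at 2.6, 4.09, 1.05, 1.63 and 5.15 FPKM in the control libraries and 4.04, 6.48, 1.15, 1.48 and 4.86 FPKM in the CKO-labelled libraries. Both state comparisons use 2 pairs per lineage with 2 residual degrees of freedom. The CKO-labelled quiescent thymocytes held proliferation markers well above their control, as given above. In CKO-labelled small pre-B cells proliferation markers and most plasmacytoid dendritic cell markers were above the control too. With granulocytes added and population means plus genotype in place of the blocks, 16 members were higher in small pre-B cells and 8 in quiescent thymocytes.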

How the data were processed

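Total RNA of sorted cells was sequenced in 10 libraries, 1 per population and genotype, per the labels' protocols. The submitters' processing notes name TopHat2 2.0.8b, Cuffdiff 2.1.1 and the build mm10 and do not say how each was used. The values were taken as deposited and are read as FPKM, judging from the tools and the values, since no label names the unit. The annotation and strand setting are not given in the sources used here. FPKM are relative within a library, and depth is unknown, so no counting interval is given.

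Each file held 23179 rows. Exact duplicates (201) were dropped, and 47 symbols still on several rows were taken from their row of highest mean. All work used log2(FPKM + 1), which understates changes of low genes. Within a population the 2-fold rule asked for a log2 ratio of 1 or more, either way, and for 5 FPKM in 1 of the 2 libraries. Tests used limma-trend (limma 3.58.1 under R 4.3.3). Genes entered a fit if they reached 1 FPKM in 2 of its libraries, with Benjamini-Hochberg adjustment over all genes tested and a threshold of 0.05. The genotype fits had population as a block, the state fits a block per lineage and genotype, and the level fits population means plus genotype, with 2 to 4 residual degrees of freedom. The fits were tested on simulated data. Alternatives were other pseudocounts (0.1 and 5 FPKM), filters, rescaling by median ratios, other models and leaving out libraries.

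The members and lists were chosen with earlier results of these data known. Values by library are given for members called in any test, for those with the largest ratios and for Irf7, Irf9, Stat2, Isg15, Usp18, Mx1 and Mx2. Of other lists, genes named are among the 3 with the highest mean or the 3 with the largest ratio, or were set beforehand, except S100a8, S100a9, Ncr1, Gbp6, Gbp7, Irf8, Ifng and Socs1 where they fall outside it, which were chosen after their values were seen. Promoters are from RefSeq (GRCm38.p6) and gene positions and transcripts from GENCODE vM21, aligned with Biopython 1.88. The other software was pandas 2.3.3, numpy 2.4.6 and matplotlib 3.10.9 under Python 3.11.15.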

Additional observations from a re-analysis of the deposited data

Results flagged for a closer look

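For 10 members the CKO-labelled value was above the control in each of the 4 lymphoid populations and below it in granulocytes. This difference between granulocytes and lymphoid cells was not tested, since granulocytes have 1 pair of libraries. The granulocyte log2 ratio of FPKM + 1 was -0.69 for Oasl1 (lymphoid ratios 0.10 to 0.37), -0.63 for Ifit3 (0.08 to 0.42), -0.44 for Mx2 (0.09 to 0.41) and -0.40 for Dhx58 (0.13 to 0.34). It was -0.37 for Gbp3 (lymphoid ratios 0.27 to 0.61), -0.26 for Irf7 (0.07 to 1.45), -0.24 for Ifit2 (0.33 to 1.5) and -0.14 for Ifit1 (0.04 to 0.54). It was -0.12 for Isg15 (0.45 to 1.60) and -0.0049 for Rtp4 (0.30 to 1.23). None of the 10 granulocyte ratios reached 2-fold.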

How the results depend on the processing

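Over the 4 genotype comparisons tested across populations, limma called 0 members in every alternative run. Of all counts of members, 168 of 174 alternative values stayed within 1.5 times the value reported, and 6 did not. The 168 include all counts of the 4 genotype comparisons, where 0 was set against 0. Such pairs count as unchanged, so the share overstates how stable the other counts were. Within populations, a pseudocount of 5 FPKM left 2 members past 2-fold in large and 6 in small pre-B cells, and a minimum of 1 FPKM added 1 in quiescent thymocytes (Ifitm3). Small against large pre-B cells gave 13 members higher with a filter of 5 FPKM. Without a filter, 0 members were lower in small pre-B cells and 0 in quiescent thymocytes.

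In the lymphoid genotype comparison Mx1 went to -0.0075 with a pseudocount of 0.1 FPKM. Over 5 populations it went to 0.0089 with 5 FPKM and ran from -0.29 to 0.12 when 1 pair of libraries was left out in turn. In the lineage difference of genotype effects Mx2 went to -0.087 with 0.1 FPKM and Parp14 to 0.062 with 5 FPKM. Without the small pre-B libraries, a choice made after seeing the data, Ifitm3 went from 0.51 to -0.21, Irf7 from 0.62 to -0.040 and Parp14 from -0.022 to 0.17 in that contrast. In pre-B cells against thymocytes Ddx58 went from 0.73 (called higher) to -0.21 and Dtx3l from 0.28 (called higher) to -0.18. The cause was not tested. Sequencing depth is not known and does not enter. The genotype comparisons pair the 2 libraries of each population through the population block, and without it limma called 0 members as well. The labels carry no replicate numbers, so no replicate block was fitted.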
